A study of Mus musculus with 5 samples.

Results

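Growth receptors carry signals from circulating and local factors into the hepatocyte, the main metabolic cell of the liver. Egfr encodes the epidermal growth factor receptor and Erbb3 a relative of it that binds neuregulins and, with little kinase activity of its own, signals through a partner. Met is the receptor for hepatocyte growth factor and Insr the insulin receptor. Lifr and Il6st (gp130) form the receptor for leukaemia inhibitory factor, and Il6st is also the signalling subunit for interleukin 6, which drives the acute phase response of the liver. In rodents, signalling through EGFR and MET is known for its part in liver regeneration.

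These 6 genes were chosen by symbol from the 18018 genes of a single-cell table of mouse hepatocytes, and all 6 were present. Egfr was picked because it was already known to differ by diet in this table, so its diet values are given as a description and without a test. The other 5 were picked as hepatocyte receptors to set beside it. HFD mice (3 animals) received a high fat diet and LFD mice (2 animals) a regular chow diet, all of them male C57BL/6J littermates that entered at 8 weeks of age and were fed for 12 weeks. Transcripts were captured by Drop-seq, in which beads tag each captured mRNA with a barcode for its cell and a random tag for the molecule (UMI), so that UMIs count molecules. P-values of the diet comparison measure the spread between these mice. Along the lobule, mouse was a block, so p-values there measure how the difference between sides varied between mice. In the lobule comparison that spread was 1 common value for all genes, not the spread of each gene.

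HFD mice 1, 2 and 3 gave 5, 208 and 25 cells with 27903, 656803 and 58470 UMIs. LFD mice 1 and 2 gave 132 and 84 cells with 446868 and 309050 UMIs. No barcode was shared between libraries (0 of 454 cells). Each of 12 hepatocyte markers had UMIs in at least 60% of the cells of each mouse, which does not test the label of single cells. At least 3 UMIs of the markers of another cell type lay in 24 of the 454 cells, among them 4 of the 5 of HFD mouse 1. HFD mouse 1 stood apart, with a median of 636 genes per barcode against 744 to 1128 in the other mice despite the highest median UMI count (6598). It also held 1075 CPM (UMIs of a gene list or gene per 1000000 UMIs of the mouse) of 9 sinusoidal endothelial markers, against 12.9 to 33.5 CPM in the other mice, and 502 CPM of 4 haemoglobin genes, against 3.24 to 291 CPM. The endothelial value rested mostly on 1 gene. Of its 30 UMIs in HFD mouse 1, 26 were of Kdr, and 7 of the 9 markers had 0. Diet fold changes of the 6 receptors, and the counts of genes called, are therefore given with and without HFD mouse 1.

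Egfr was the receptor with the widest gap between the diets. Its level was 35.8, 79.2 and 51.3 CPM in HFD mice 1, 2 and 3, against 414 and 385 CPM in LFD mice 1 and 2. The UMIs behind these levels were 1, 52 and 3 in HFD mice and 185 and 119 in LFD mice, so only HFD mouse 2 measured the HFD level with any precision (95% counting interval 59.1 to 103.8 CPM). All HFD mice lay below both LFD mice, and the intervals of HFD mice, which reach up to 199.7 CPM in HFD mouse 1, lay below those of LFD mice, which begin at 319 CPM. Means were 55.4 ± 22.0 CPM in HFD mice and 399.5 ± 20.5 CPM in LFD mice (SD, n = 3 and 2). The fitted log2 fold change of HFD over LFD was -2.58 (SE 0.46), rank 10 from the most negative of 3614 genes, and it was -2.34 (SE 0.27) without HFD mouse 1. It was -2.31 (SE 0.29) with HFD mouse 2 alone set against both LFD mice.

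**Figure D1:**
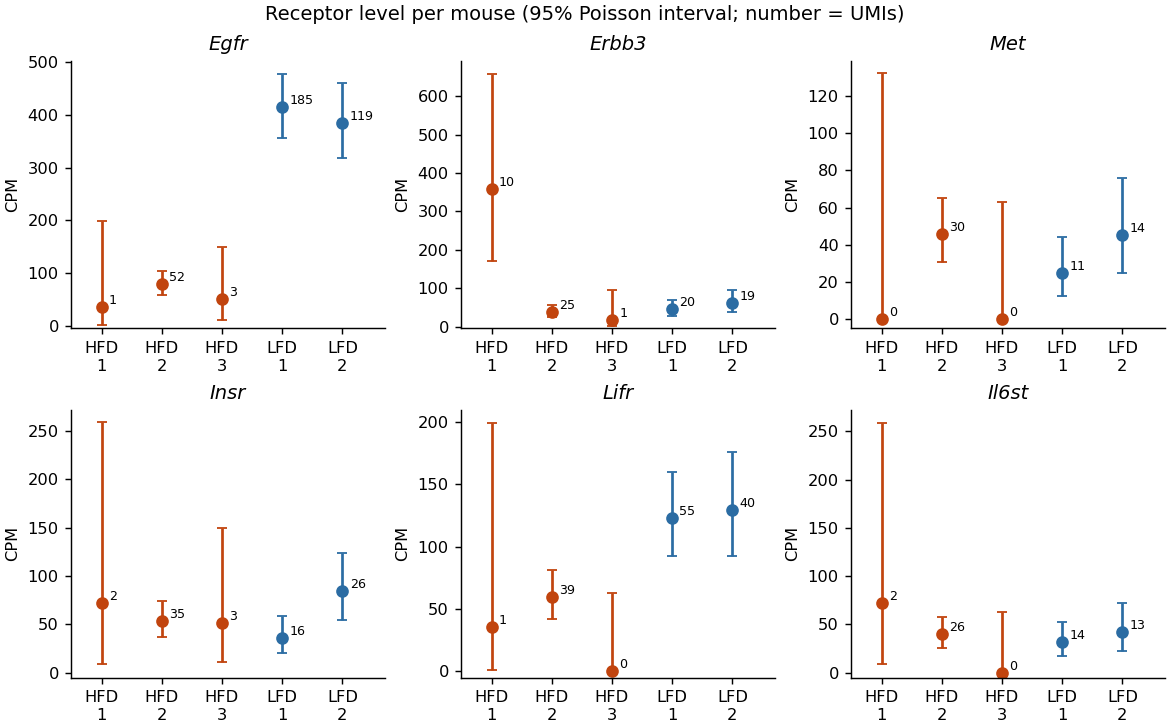
Level of each receptor in CPM in HFD mice (orange, left) and LFD mice (blue, right), with 95% Poisson intervals and the UMI count beside each point; vertical scales differ between panels. Egfr and Lifr lie lower in all 3 HFD mice than in both LFD mice, the Erbb3 point of HFD mouse 1 rests on 10 UMIs of 1 cell, and points at 0 have intervals that reach up to 132 CPM.

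The same gap was seen in the share of cells with an Egfr UMI. That share was 20%, 20.7% and 12.0% in HFD mice 1, 2 and 3, against 59.8% and 61.9% in LFD mice 1 and 2. The exact 95% binomial interval was 15.4% to 26.8% in HFD mouse 2, against 51.0% to 68.3% in LFD mouse 1. Cells were less deeply sequenced in HFD mouse 2 (median 2182 UMIs) than in LFD mice (2734 and 3076 UMIs), and in LFD mouse 1 cells with an Egfr UMI were deeper than those without (3541 against 2021 UMIs), so the shares were also computed for cells thinned to 1728 UMIs, which 5, 134 and 14 cells of HFD mice 1, 2 and 3 and 114 and 74 cells of LFD mice 1 and 2 reached. At that depth the expected share was 4.16%, 14.3% and 4.51% in HFD mice, against 45.6% and 44.9% in LFD mice. The groups still did not overlap. Intervals here and elsewhere cover counting error only.

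Cells with several Egfr UMIs were also rare in HFD mice. Of 208 cells of HFD mouse 2, 36 held 1 Egfr UMI, 5 held 2, 2 held 3 and 0 held 4 or more. Of 132 cells of LFD mouse 1, 15 held 4 or more, as did 10 of 84 cells of LFD mouse 2. No cell population that lacks these receptors was there to measure free RNA from hepatocytes, so how much of each share is background was not tested. Of 12 receptors of other liver cells, which would show free RNA from those cells, 7 had 0 UMIs in all 454 cells, and Kdr, the endothelial receptor for VEGF, had a UMI in 1.76% of cells, most of its 33 UMIs lying in HFD mouse 1 (26 UMIs). Egfr, at 39.2% of all cells, and each of the other 5 receptors, at 10.8% to 21.4%, were found in more cells than Kdr.

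**Figure D2:**
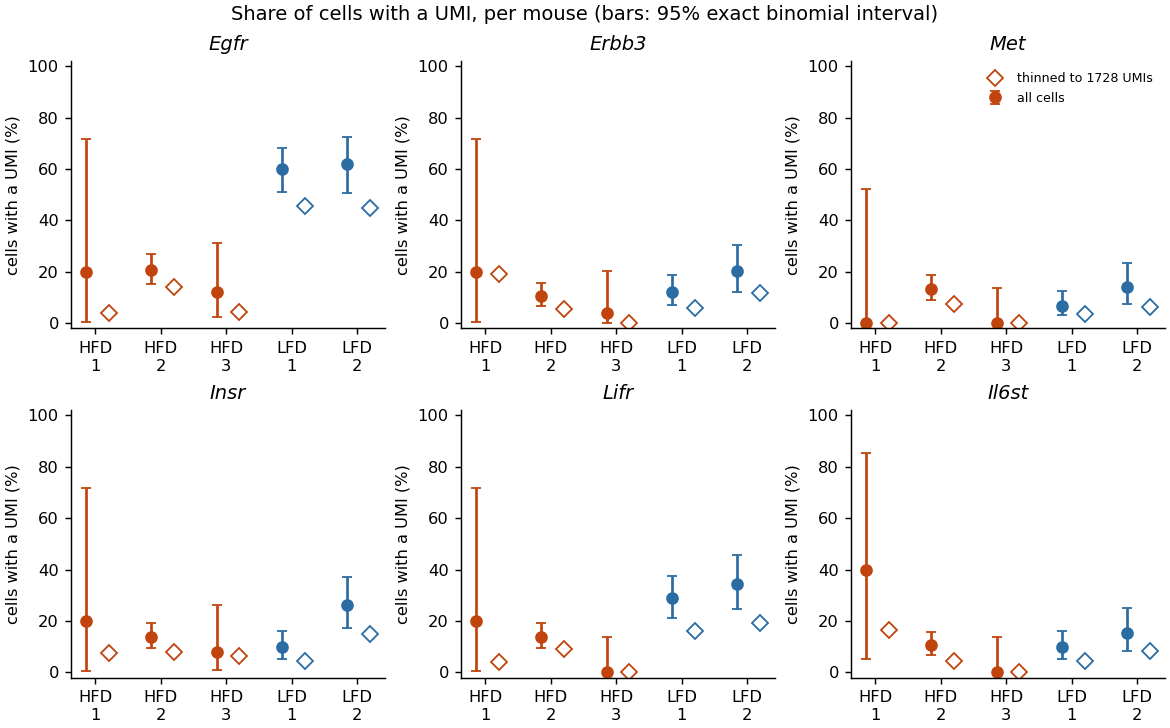
Share of cells with at least 1 UMI of each receptor in HFD mice (orange, left) and LFD mice (blue, right). Filled points are all cells with exact 95% binomial intervals and open diamonds the expected share in cells thinned to 1728 UMIs; for Egfr the diamonds stand at 4.16% to 14.3% in HFD mice and at 44.9% and 45.6% in LFD mice.

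**Figure D3:**
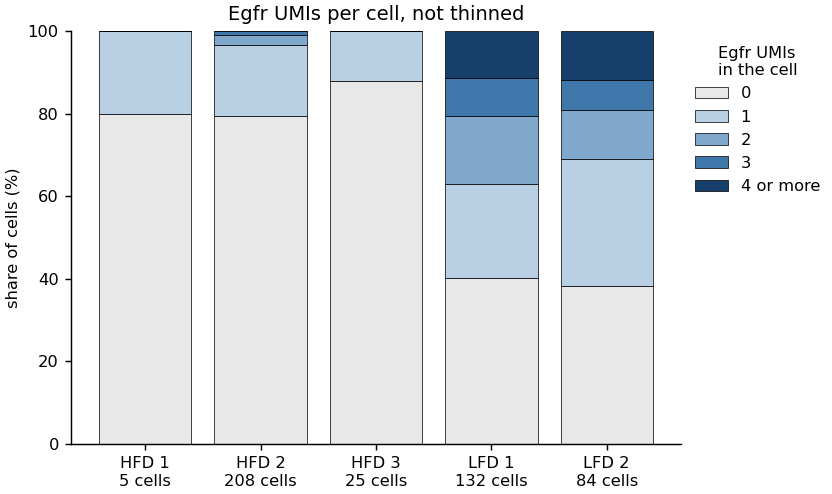
Share of cells of each mouse by the number of Egfr UMIs in the cell (vertical axis in percent, darker for more UMIs, not thinned), HFD mice left of LFD mice. Cells with 4 or more Egfr UMIs appear in LFD mice only (15 and 10 cells).

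Lifr came next. It had 35.8, 59.4 and 0 CPM in HFD mice 1, 2 and 3 (1, 39 and 0 UMIs), against 123 and 129 CPM in LFD mice 1 and 2 (55 and 40 UMIs). All HFD mice lay below both LFD mice, and the count of 0 in HFD mouse 3 allows up to 51.3 CPM. The log2 fold change was -1.69 (SE 0.67, limma adjusted p = 0.916), so Lifr did not pass the threshold of 0.05. Without HFD mouse 1 it was -1.26 (SE 0.42, limma adjusted p = 0.121), and with HFD mouse 2 as the only HFD mouse it was -1.06 (SE 0.34, limma adjusted p = 0.0357), a fit in which 1 HFD mouse is assumed to vary like the LFD mice. Over all alternatives for Lifr the limma adjusted p lay between 0.000568 and 1.00, the lowest being that of the smoothed table, whose p-values are not read as spread between mice. The share of cells with a Lifr UMI, thinned to equal depth, was 4.16%, 9.09% and 0% in HFD mice, against 16.3% and 19.1% in LFD mice.

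Egfr and Lifr were the members whose HFD mice all lay below the LFD mice, so the sequence around their transcript starts is shown (RefSeq, build GRCm38.p6, 250 bases before to 50 after the start, plus strand). The Egfr window is chr11:16751953-16752252, and the Lifr windows are chr15:7129322-7129621 and chr15:7140292-7140591, for 2 listed transcript starts. Capitals mark matches on either strand to the GC box GGGCGG or the CCAAT box CCAAT.
Egfr: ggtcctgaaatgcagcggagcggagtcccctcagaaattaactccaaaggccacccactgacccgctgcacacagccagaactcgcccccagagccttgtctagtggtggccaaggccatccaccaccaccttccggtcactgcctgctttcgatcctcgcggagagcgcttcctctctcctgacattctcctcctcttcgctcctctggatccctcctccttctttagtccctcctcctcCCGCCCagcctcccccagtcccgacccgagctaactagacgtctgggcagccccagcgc
Lifr, first start: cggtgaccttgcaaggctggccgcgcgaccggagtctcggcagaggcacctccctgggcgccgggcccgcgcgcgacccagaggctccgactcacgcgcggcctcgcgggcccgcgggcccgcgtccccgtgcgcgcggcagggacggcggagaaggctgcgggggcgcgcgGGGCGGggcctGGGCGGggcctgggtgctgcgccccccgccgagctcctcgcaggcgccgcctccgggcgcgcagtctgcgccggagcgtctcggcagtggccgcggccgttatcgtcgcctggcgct
Lifr, second start: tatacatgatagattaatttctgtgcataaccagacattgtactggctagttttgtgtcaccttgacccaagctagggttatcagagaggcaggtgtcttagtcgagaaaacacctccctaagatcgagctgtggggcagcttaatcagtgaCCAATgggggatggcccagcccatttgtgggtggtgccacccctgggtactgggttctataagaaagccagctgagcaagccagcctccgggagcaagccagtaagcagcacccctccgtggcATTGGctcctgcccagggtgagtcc

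The Egfr window held 62.3% G and C, 1 GC box and 15 CG dinucleotides. The first Lifr window held 81.3% G and C, 2 GC boxes and 53 CG dinucleotides, whereas the second held 53.3%, 0 GC boxes, 2 CCAAT boxes and 4 CG dinucleotides. Over all 32851 windows of this length the medians were 52.7% G and C and 7 CG dinucleotides, and 35.7% held a GC box and 37.4% a CCAAT box. None of the windows matched to members (5 windows of Egfr, Met, Lifr and Il6st) held the TATA box core TATAAA, found in 13.6% of windows, or the STAT site core TTCNNNGAA, found in 8.30%. No marked matches overlap. These are matches of letters in a short window and say nothing about binding. The Egfr window and the first Lifr window both held a GC box and more CG dinucleotides than the median window, and the second Lifr window did neither. This was not particular to Egfr and Lifr. The Met and Il6st windows, of members that did not separate the diets, held 3 GC boxes each and 34 and 33 CG dinucleotides.

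The other receptors did not separate the diets. Met had 0, 45.7 and 0 CPM in HFD mice 1, 2 and 3 (0, 30 and 0 UMIs), against 24.6 and 45.3 CPM in LFD mice (11 and 14 UMIs). The HFD values lay on both sides of the LFD values, and the counts of 0 allow up to 108 and 51.3 CPM. Insr had 71.7, 53.3 and 51.3 CPM in HFD mice (2, 35 and 3 UMIs), against 35.8 and 84.1 CPM in LFD mice (16 and 26 UMIs). All 3 HFD mice lay between the LFD mice, which differed from each other by more than HFD mice did. Il6st had 71.7, 39.6 and 0 CPM in HFD mice (2, 26 and 0 UMIs), against 31.3 and 42.1 CPM in LFD mice (14 and 13 UMIs), again overlapping.

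Their fitted log2 fold changes were -0.37 for Met (95% interval -1.93 to 1.19), 0.06 for Insr (-1.18 to 1.30) and -0.13 for Il6st (-1.66 to 1.39), with limma adjusted p of 0.991, 0.996 and 0.996. Each of these intervals holds a change of 1 log2 unit in either direction, so a difference of that size is not excluded. Without HFD mouse 1 the log2 fold changes were 0.32 for Met, which turns its sign, 0.025 for Insr and -0.033 for Il6st (limma adjusted p = 0.796, 0.985 and 0.982).

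The Erbb3 level of HFD mouse 1 rested on 1 cell. Erbb3 had 358, 38.1 and 17.1 CPM in HFD mice 1, 2 and 3 (10, 25 and 1 UMIs), against 44.8 and 61.5 CPM in LFD mice 1 and 2 (20 and 19 UMIs). All 10 UMIs of HFD mouse 1 lay in 1 barcode of 6598 UMIs and 636 genes, and no other cell of the table held more than 3. That barcode also held 1015 UMIs of the hepatocyte markers, 8 of haemoglobin genes, 0 of the 9 endothelial markers and 0 of the 6 cholangiocyte markers. With all cells the log2 fold change was -0.21 (SE 0.72, 95% interval -1.77 to 1.35, limma adjusted p = 0.995). Without that cell it was -0.70 (SE 0.52, limma adjusted p = 0.919), and without HFD mouse 1, where the other HFD mice lay below both LFD mice, it was -0.47 (SE 0.38, limma adjusted p = 0.554). Neither value passed the threshold.

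All 6 members passed the filter on low counts in the diet comparison. Over all 3614 genes tested, 0.221% passed an adjusted p of 0.05 with limma (8 genes), 0.0553% as higher and 0.166% as lower in HFD mice, and 5.09% had an unadjusted p under 0.05. Every HFD mouse lay below every LFD mouse in 14.3% of genes and above in 8.88%, so that 23.2% did not overlap. Egfr and Lifr, 2 of the 6, lay below in every HFD mouse, but Egfr was chosen on this contrast and nothing is read from the share. The median log2 fold change over all genes was -0.08. The number called depended on the mice. Leaving out HFD mouse 1 gave 124 genes in limma. Leaving out HFD mouse 2, HFD mouse 3, LFD mouse 1 or LFD mouse 2 gave 0 each, while 202, 135, 45 and 37 genes had an unadjusted p under 0.05.

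**Figure D4:**
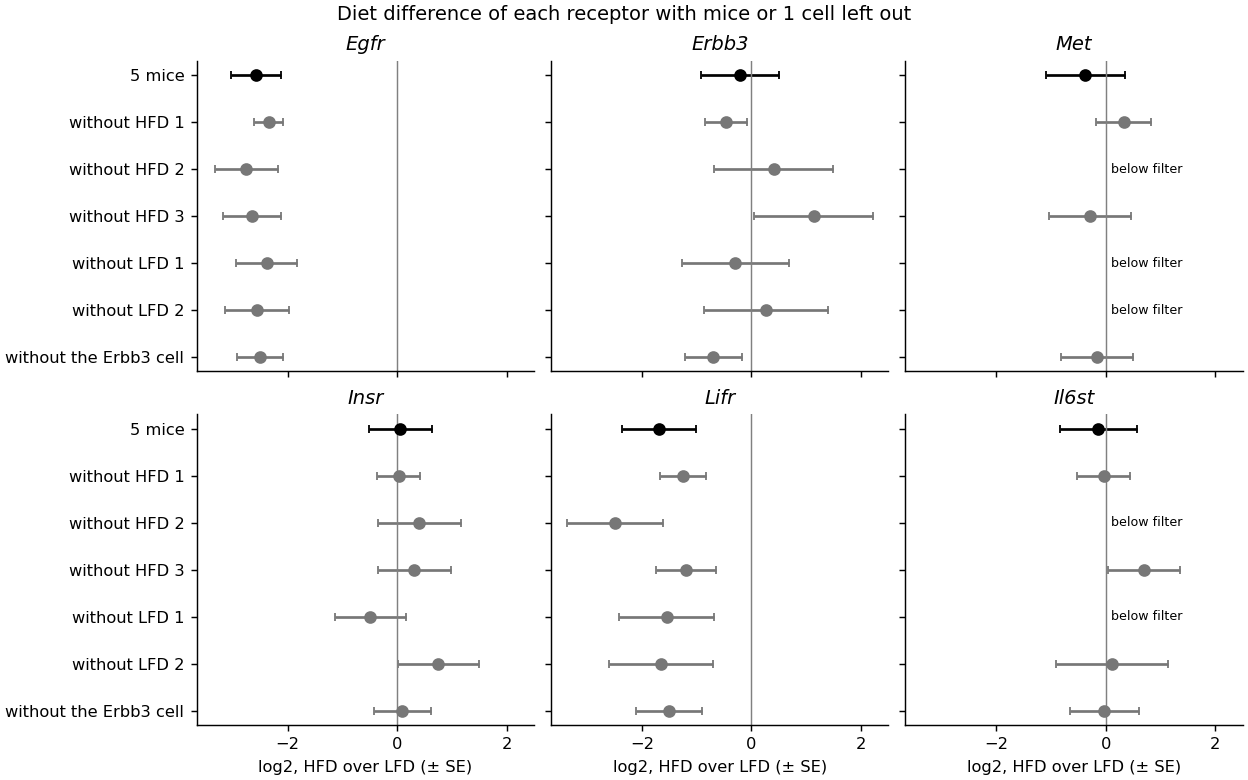
Fitted log2 fold change of HFD over LFD (horizontal, with SE) for each receptor with all 5 mice (black) and with 1 mouse, or the cell of 10 Erbb3 UMIs, left out (grey). Egfr stays between -2.76 and -2.34 with a mouse left out and Lifr between -2.50 and -1.19, whereas Erbb3, Met, Insr and Il6st change sign; "below filter" marks fits in which a gene had too few UMIs.

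Along the lobule, the tissue unit in which blood runs from the portal to the central vein, Egfr was lower toward the central vein. Cells of each mouse were ranked by a score of 20 pericentral against 19 periportal genes, of which no member was one, and divided at the median into a pericentral and a periportal side. HFD mouse 1, with 5 cells, was left out. Egfr was 37.3 and 30.1 CPM on the pericentral side of HFD mice 2 and 3 (14 and 1 UMIs), against 135 and 79.2 CPM on their periportal side (38 and 2 UMIs). In LFD mice 1 and 2 it was 339 and 323 CPM on the pericentral side (60 and 44 UMIs), against 463 and 434 CPM on the periportal side (125 and 75 UMIs). The pericentral side was the lower in all 4 mice.

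The log2 fold change of the pericentral over the periportal side was -0.82 (SE 0.20, limma adjusted p = 0.00192 over 2606 genes). Of the genes tested, 7.37% passed in either direction, 4.11% as lower and 3.26% as higher on the pericentral side, and 6.72% were lower there in every mouse. The call was lost without HFD mouse 2, where the log2 fold change was -0.54 (limma adjusted p = 0.189), and with HFD mouse 1 added, where it was -0.90 (limma adjusted p = 0.403). It was also lost with limma-trend (-0.99, adjusted p = 0.213) and without the mouse as a block (-1.27, limma adjusted p = 0.589). It was kept without HFD mouse 3, LFD mouse 1 or LFD mouse 2 (limma adjusted p = 0.00069, 0.0339 and 0.012). Over all alternatives for Egfr along the lobule, the log2 fold change lay between -1.27 and -0.54 and the adjusted p between 0.00069 and 0.589. Depth differed between the sides in both directions, with median UMIs per cell of 2323 and 1949 on the pericentral side of HFD mice 2 and 3, against 1960 and 1753 on the periportal side, and 2160 and 2795 on the pericentral side of LFD mice 1 and 2, against 3532 and 3408 on the periportal side. Whether depth plays a part in the Egfr difference between the sides was not tested.

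With the rank divided into 3 zones of like cell number, the lowest level lay in the pericentral zone. From the periportal through the middle to the pericentral zone, HFD mouse 2 had Egfr levels of 105, 116 and 30.5 CPM, and LFD mouse 2 had 438, 422 and 259 CPM. In LFD mouse 1 it was 479, 407 and 330.0 CPM, a more even decline. HFD mouse 3 had 1, 2 and 0 Egfr UMIs in its zones, too few to place. The expected share of cells with an Egfr UMI at equal depth was 15.8%, 22.9% and 4.95% in HFD mouse 2, 49.5%, 45.4% and 41.1% in LFD mouse 1, and 42.2%, 54.7% and 35.8% in LFD mouse 2. In each of these mice the pericentral zone was the lowest.

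**Figure D5:**
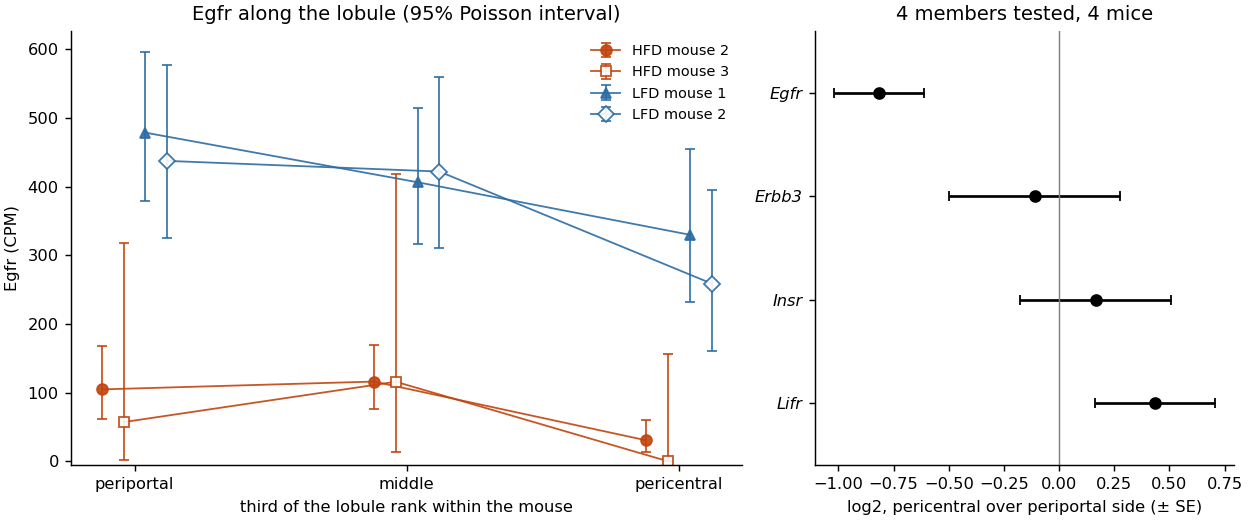
Left, Egfr in CPM with 95% Poisson intervals by zone of the lobule rank in HFD mice 2 and 3 (orange) and LFD mice 1 and 2 (blue). Right, fitted log2 fold change of the pericentral over the periportal side (with SE) for the 4 receptors with enough UMIs; Egfr stands at -0.82 and the other 3 between -0.11 and 0.44.

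Whether this decline differs by diet was tested as an interaction. The pericentral over periportal log2 fold change in HFD mice minus that in LFD mice was -1.33 (SE 0.49, limma adjusted p = 0.854), which did not pass. Of all genes 0.0767% passed, and 5.45% had an unadjusted p under 0.05. The difference in Egfr slope between the diets is therefore not shown, and it rests on 15 pericentral UMIs of HFD mice. On each side of the lobule the Egfr CPM of HFD mice lay below that of LFD mice. This is a description only, as Egfr was chosen on its diet difference, and HFD mouse 3 had 1 pericentral and 2 periportal UMIs.

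The other receptors showed no call along the lobule. Lifr was 77.3 and 0 CPM on the pericentral side of HFD mice 2 and 3, against 35.5 and 0 CPM on the periportal side, and 119 and 176 CPM on the pericentral side of LFD mice 1 and 2, against 126 and 92.5 CPM on the periportal side. It was higher on the pericentral side in 2 of the 3 mice with UMIs, with a log2 fold change of 0.44 (SE 0.27, 95% interval -0.10 to 0.97, limma adjusted p = 0.457). Insr (0.17, 95% interval -0.50 to 0.83, limma adjusted p = 0.89) and Erbb3 (-0.11, 95% interval -0.87 to 0.65, limma adjusted p = 0.936) did not pass either. Met and Il6st were below the filter of the lobule comparison and are too sparse to be placed along it. Met had 19 and 0 UMIs on the pericentral side of HFD mice 2 and 3, against 11 and 0 on the periportal side, and 2 and 9 on the pericentral side of LFD mice 1 and 2, against 9 and 5 on the periportal side, so LFD mice went opposite ways. Il6st had 14 and 0 UMIs on the pericentral side of HFD mice 2 and 3, against 12 and 0, and 3 and 6 in LFD mice 1 and 2, against 11 and 7.

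Sparsity set what could be said of each receptor. Over all cells Egfr had 360 UMIs, Lifr 135, Insr 82, Erbb3 75, and Met and Il6st 55 each. In HFD mouse 3, Met, Lifr and Il6st had 0 UMIs and the other 3 had 1 to 3, and in HFD mouse 1 Met had 0. HFD values of all members thus rest mainly on HFD mouse 2 (those of Erbb3 also on 1 cell of HFD mouse 1), where each had 25 to 52 UMIs. Of the 454 cells, 1 in HFD mouse 2 and 1 in LFD mouse 2 held UMIs of all 6 receptors. Cells with 0 of the 6 made up 40.0%, 43.3% and 80.0% of cells in HFD mice 1, 2 and 3, against 23.5% and 21.4% in LFD mice 1 and 2. In cells thinned to 1728 UMIs the expected share was 54.8%, 59.7% and 89.1% in HFD mice, against 38.4% and 31.9% in LFD mice. With Egfr, which was chosen on this contrast, taken out, the share with 0 of the other 5 was 56.4%, 68.8% and 93.6% in HFD mice at that depth, against 68.8% and 56.2% in LFD mice. Without Egfr the groups overlapped.

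Most ligands and partners of these receptors had few or no UMIs. Of 4 ERBB receptors, Erbb2, the usual partner of ERBB3, had 0 UMIs in all 5 mice, which allows up to 2.00 CPM over all cells, and Erbb4 had 3, all in HFD mouse 2. Of 9 ERBB ligands in the table, 3 had a UMI, namely Nrg4, a neuregulin (13 UMIs), Tgfa, a ligand of EGFR (5), and Btc, betacellulin (3). Hgf, the ligand of MET, had 1 UMI. Il6, Lif, Osm, Osmr and Igf1r had 0. Of 17 feedback regulators of ERBB signalling, 3 were tested and 0 passed by diet with limma. Errfi1, which binds and inhibits EGFR, was 430, 574 and 735 CPM in HFD mice, against 606 and 718 CPM in LFD mice (log2 fold change -0.23, SE 0.34, limma adjusted p = 0.988), and the groups overlapped. Grb7, an adaptor that binds ERBB receptors, and Usp8, a deubiquitinase acting on EGFR, had log2 fold changes of -0.33 and -0.46 (limma adjusted p = 0.988 each). Usp8 was 35.8, 39.6 and 17.1 CPM in HFD mice (1, 26 and 1 UMIs), against 49.2 and 51.8 CPM in LFD mice (22 and 16 UMIs), so its groups did not overlap although it did not pass. Along the lobule Errfi1 was lower on the pericentral side (-0.58, SE 0.15, limma adjusted p = 0.00192), the same direction as Egfr.

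With all 5 mice, downstream lists held no gene called by diet. In limma 0 of 5 tested HGF and MET genes passed, 0 of 11 insulin path genes, 0 of 5 gp130 path genes, 0 of 11 acute phase targets of STAT3, 0 of 6 RAS and MAPK relay genes, 0 of 6 growth response genes and 0 of 10 other hepatocyte receptors. Among HGF and MET genes, Plg (plasminogen), Hgfac and Hpn (proteases that activate HGF) had log2 fold changes of -0.26, 0.69 and -0.20. In the insulin path Pck1, G6pc and Pik3r1, a regulatory subunit of PI3 kinase, had -0.54, -0.63 and 0.81, whereas in the gp130 path the kinase Jak1 and the transcription factor Stat3 had 0.07 and -0.19. The acute phase proteins Fgb, Hp and Hpx had -0.15, -0.18 and -0.97. The kinase Map2k2 of the MAPK relay had -0.28. Hamp, the iron hormone hepcidin, named here after its values were seen, lay higher in every HFD mouse, with 2330, 1063 and 2326 CPM in HFD mice, against 745 and 291 CPM in LFD mice (1.54, SE 0.45, limma adjusted p = 0.437). None of these passed. The groups did not overlap for Hgfac (215, 119 and 171 CPM in HFD mice, against 76.1 and 107 CPM in LFD mice) or Pik3r1 (251, 80.7 and 68.4 CPM in HFD mice, against 58.2 and 48.5 CPM in LFD mice), which were higher in every HFD mouse. The list medians were -0.33 for ERBB feedback, -0.26 for HGF and MET, 0.06 for the insulin path, -0.19 for gp130, -0.18 for acute phase targets, 0.06 for RAS and MAPK, 0.84 for growth response genes and -0.07 for other hepatocyte receptors, against -0.08 over all genes. Of the growth response genes 6 of 6 lay above 0, as did 1578 of all 3614 genes, and 0 passed. Dusp1, a phosphatase that switches off MAP kinases, was 35.8, 108 and 188 CPM in HFD mice (1, 71 and 11 UMIs), against 17.9 and 29.1 CPM in LFD mice (8 and 9 UMIs). Its log2 fold change was 2.22 (SE 0.60, limma adjusted p = 0.323). Jun and Ier2, immediate early genes, had 0.90 and 0.77 and did not pass. Without HFD mouse 1, where 124 of 3670 genes were called, 5 list genes outside the 6 receptors passed in limma. Of 6 growth response genes tested in that fit, 2 passed as higher. Of 12 acute phase targets, 1 passed as higher and 2 as lower. Dusp1 (2.41, adjusted p = 0.00241), Jun (1.31, adjusted p = 0.00302) and Hamp (1.49, adjusted p = 0.0173) were higher in HFD mice. Jun was 71.7, 312 and 325 CPM in HFD mice 1, 2 and 3, against 137 and 113 CPM in LFD mice. HFD mouse 1, left out of that fit, thus lay below both LFD mice in Jun, there with 2 UMIs. Saa1, serum amyloid A (-1.45, adjusted p = 0.0153), and Hpx (-1.14, adjusted p = 0.0185) were lower, although with all 5 mice the groups overlapped for both. Hpx was 4229, 991 and 2771 CPM in HFD mice 1, 2 and 3, against 3104 and 2941 CPM in LFD mice. Its call thus rests mainly on HFD mouse 2. Ghr, the growth hormone receptor, was 179, 429 and 479 CPM in HFD mice, against 356 and 408 CPM in LFD mice (-0.05, SE 0.42, limma adjusted p = 0.996). Asgr1, a subunit of the asialoglycoprotein receptor, was 108, 531 and 701 CPM in HFD mice, against 606 and 537 CPM in LFD mice (-0.48, SE 0.50, limma adjusted p = 0.988).

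Along the lobule, several acute phase and gluconeogenic genes passed. Of all 2606 genes tested, 4.11% passed as lower and 3.26% as higher on the pericentral side. These calls rest on 1 common spread for all genes. The 192 calls fell to 12 with limma-trend, 13 without the mouse as a block and 21 with all 5 mice. Whether the list genes below kept their calls in those fits is not shown. Of 11 acute phase targets, 5 were lower on the pericentral side (Fga, Fgb and Fgg, the chains of fibrinogen, Hp, haptoglobin, and Hpx, haemopexin), with log2 fold changes from -0.87 to -0.41. Hamp was higher there (0.47, SE 0.14, limma adjusted p = 0.0132). Of 8 insulin path genes, Pck1 and G6pc, enzymes of gluconeogenesis, were lower there (-0.87 and -0.80, limma adjusted p = 7.1e-10 and 0.00101). None of the tested HGF and MET, gp130, RAS and MAPK, growth response or other receptor genes passed (0 in each list with limma). The split of all calls along the lobule was 85 higher and 107 lower on the pericentral side, and 127 higher and 68 lower with library totals alone, a scaling that moved the median over all genes to 0.08, against -0.03. Under it Egfr was still lower (-0.71, limma adjusted p = 0.00978).

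The 5 genes whose level followed Egfr most closely over the 5 mice, by the root mean square difference of centred log2(CPM + 10), were Cyp4a12b (0.23), Ugt2b38 (0.28), Cyp7b1 (0.29), Nudt7 (0.34) and Slc46a3 (0.47). This measure matches the diet pattern for which Egfr was chosen, so the list is a description only. For comparison, the value of Lifr was 0.94. Cyp7b1, the oxysterol hydroxylase, was 71.7, 183 and 68.4 CPM in HFD mice (2, 120 and 4 UMIs), against 577 and 514 CPM in LFD mice. Nudt7, a peroxisomal coenzyme A hydrolase, was 143, 419 and 171 CPM in HFD mice, against 1148 and 951 CPM in LFD mice. In both, HFD mouse 2 was the highest of the HFD mice and still below both LFD mice, as for Egfr. Cyp4a12b, Ugt2b38 and Slc46a3 had 0 UMIs in HFD mice 1 and 3 and 3 to 7 in HFD mouse 2, so they passed the filter through the LFD mice, and the added 10 CPM sets their HFD values.

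All 6 members are protein-coding genes (GENCODE vM21, GRCm38, which is mm10). Egfr lies on chromosome 11 from 16752203 to 16918158 on the plus strand, Erbb3 on chromosome 10 from 128567523 to 128589652 on the minus strand, and Met on chromosome 6 from 17463800 to 17573980 on the plus strand. Insr lies on chromosome 8 from 3122061 to 3279617 on the minus strand, Lifr on chromosome 15 from 7090614 to 7197489 on the plus strand, and Il6st on chromosome 13 from 112464070 to 112510086 on the plus strand.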

How the data were processed

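STAR 2.6.0a and build mm10 are named per the submitters' processing notes. The sources used here do not state how cells were filtered, doublets treated and genes annotated. The authors deposited natural log values, which the values show to be the natural log of 1 plus UMIs per 10000 UMIs of the cell, for 18018 genes and 454 cells. Cells were given to mice by column name (0 unmapped). UMIs were recovered as whole multiples of each cell's smallest step (100% of values within 0.001) and summed per mouse, or per mouse and lobule side. The deposited unit is no count, so limma voom (limma 3.58.1, R 4.3.3) with trimmed-mean factors was used, with Benjamini-Hochberg adjustment over all genes tested. A gene was tested with 15 UMIs in total and, in at least 2 samples, a CPM worth 10 UMIs in the sample of median total (32.4 CPM for diet, 57.2 CPM for the lobule). Mouse was a block in the lobule fit, in which limma took 1 common spread for all genes. A second deposited table, taken from its name to be smoothed over cells and to be on the same natural log scale, was used as an alternative. Thinned shares are hypergeometric expectations (SciPy 1.17.1), intervals exact, and limits of a 0 rest on 3 counts. No doublet caller was run. The mice were littermates but cells were not treated as replicates. Fits were tested on simulated data. The members, lists and most tests were chosen with earlier results of these data known. All members are named in each comparison, and from each list the genes past the threshold or else up to 3 of highest mean CPM; some of these are not reported here. Pigr is both a listed receptor and a lobule score gene, and it is in no lobule test.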

Additional observations from a re-analysis of the deposited data

How the results depend on the processing

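Diet differences of Egfr and Lifr kept their direction under all 17 alternatives. This adds little, since every HFD mouse lay below both LFD mice in each gene. Leaving out a mouse or rescaling could then hardly turn the sign, and Egfr was chosen on this contrast. Egfr moved beyond its spread between mice in 2, with values of -1.28 on the mean of deposited log values and -0.11 in the smoothed table. The count of genes called by diet (8) was 0 to 124 with a mouse left out, 2 with no filter beyond 5 UMIs, 0 with a minimum of 50 UMIs, 0 with limma-trend on log2(CPM + 10), 14 with limma-trend on mean deposited log values, 2 without the 5% of cells with the most UMIs and 2 without cells holding other markers. Chosen after the data were seen, it was 13 without the cell of 10 Erbb3 UMIs, 2491 in the smoothed table and 202 without HFD mice 1 and 3. With the replicate number as a block it was 29. Correlations of deviations were 0.03 and 0.07 for the same-numbered pairs. Deviations of 2 LFD mice mirror each other, so HFD mouse 1 had 0.03 with LFD mouse 1 and -0.03 with LFD mouse 2. These values cannot show whether the numbers pair the mice. Counts at an unadjusted p under 0.05 were 118 with a minimum of 50 UMIs and 66 with limma-trend on log2(CPM + 10). The count along the lobule (192) was 68 to 205 with a mouse left out, 21 with all 5 mice, 118 with no filter beyond 5 UMIs, 12 with limma-trend and 13 without the mouse as a block. The interaction count (2) was 0 to 2 with a mouse left out and 4 with the outer zones only. Signs of uncalled members turned often. With a mouse left out, the diet value of Erbb3 ranged from -0.47 to 1.14, of Met from -0.29 to 0.32, of Insr from -0.49 to 0.75 and of Il6st from -0.033 to 0.70. Erbb3 was 0.16 with no filter beyond 5 UMIs, 0.18 with 50 UMIs, 0.26 with limma-trend on log2(CPM + 10), 0.066 on deposited log values, 0.13 without the deepest cells and 1.17 with the replicate block. Insr was -0.039 with no filter beyond 5 UMIs, -0.018 with limma-trend on log2(CPM + 10), -0.084 on deposited log values, -0.39 without the deepest cells and -0.0092 in the smoothed table. Il6st was 0.064 on deposited log values, 0.12 without cells holding other markers, 0.47 with the replicate block and 0.16 without HFD mice 1 and 3. Met was 0.060 without cells holding other markers, 0.00063 in the smoothed table and 0.55 without HFD mice 1 and 3. Along the lobule Insr ranged from -0.17 to 0.53 with a mouse left out, and Erbb3, testable in 1 such fit, was 0.076 without HFD mouse 3. They were -0.070 and 0.12 with all 5 mice, and -0.090 and 0.016 with a score without Cyp2e1 and Cyp2f2. With a mouse left out, the interaction of Insr ranged from -0.74 to 1.99 and that of Lifr from -0.72 to 0.82. The causes were not tested. In HFD mice 1 and 3 a count of 0 allows up to 108 and 51.3 CPM, and levels there that rest on 1 to 3 UMIs, Egfr included, are imprecise.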

Other observations

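The smoothed table gives the same receptors a different look. Egfr averaged 0.72, 0.72 and 0.73 in HFD mice 1, 2 and 3, against 0.80 and 0.80 in LFD mice, on the natural log scale of that table. HFD mouse 1, with 1 Egfr UMI in the unsmoothed table, and HFD mouse 2, with 52, thus had nearly equal smoothed values. Erbb3, at 10 UMIs in HFD mouse 1, averaged 0.178 there after smoothing, against 0.190 and 0.191 in LFD mice. After smoothing, 2491 of 3519 genes passed limma by diet, against 8 of 3614 in the unsmoothed one. Lifr, Erbb3, Il6st and Insr, which did not pass in the unsmoothed table, passed there as lower in HFD mice (limma adjusted p = 0.000568, 0.00456, 0.00345 and 0.0464), while Met did not (limma adjusted p = 0.74). Most genes passed there, so passing does not set these receptors apart. Smoothed values of different mice may not be independent. These p-values therefore cannot be taken to measure the spread between mice, and no diet difference is read from them.

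HFD mouse 1 held a further barcode with many UMIs of 1 receptor. Kdr had 26 UMIs there in 2 of its 5 barcodes, 21 of them in 1, and at most 2 in any cell of the other mice.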
